A study of Homo sapiens with 6 samples.

Results

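Retinoic acid receptors and a set of genes that respond to retinoic acid were examined in HL60 cells with and without targeting of the gene SKI. The 10 members were a list of symbols looked up among the 56638 genes of the count table: the receptor genes RARA, RARB, RARG, RXRA and RXRB, and the response genes DHRS3, DHRS9, RARRES3, CYP26A1 and CD38. All 10 were in the table, 7 had enough counts to be tested among 16340 genes, and RARB, CYP26A1 and CD38 did not. HL60 is a human acute myeloid leukaemia cell line that resembles promyelocytes. The knockout group held 3 libraries of HL60 cells with CRISPR/Cas9-mediated deletion of SKI, all from the line numbered 3, and the control group 3 libraries of CRISPR/Cas9 control HL60 cells, all from the line numbered 1. Both lines were cultured in RPMI medium with 10% fetal calf serum, and the labels name no added retinoid, so neither group is described as retinoid-treated. Each genotype was thus represented by 1 line, and a difference between genotypes and a difference between lines cannot be told apart. Nothing in the labels says that replicates came from separate cultures; every p-value therefore measures a spread among libraries that may be technical only.

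Retinoic acid, made from vitamin A, acts through nuclear receptors that bind DNA as pairs of an RAR and an RXR. Without ligand the pair holds co-repressor complexes containing NCoR and histone deacetylases at target genes, and ligand exchanges these for co-activators. SKI, a nuclear co-repressor, binds NCoR and has been described as a repressor of RAR-driven transcription. HL60 cells are a classical model in which retinoic acid brings about granulocytic maturation, chiefly through RARA. Receptor pairs favour 2 copies of a six-base half-site in the same orientation with a spacer of 5, 2 or 1 bases, called DR5, DR2 and DR1.

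Library totals lay between 47930276 and 58553247 counts, so that 3 counts in a library, the limit that a count of 0 allows, corresponded to 0.0509 to 0.0628 CPM (counts scaled per 1e+06 of the TMM-adjusted library size). SKI itself stood at 59.6, 40.7 and 42.0 CPM in the knockout libraries, against 63.9, 83.5 and 88.5 CPM in the controls, which is -0.73 on the log2 scale (SE 0.19, edgeR adjusted p = 0.0282). The call on SKI was lost without control replicate 2 (adjusted p = 0.109), control replicate 3 (0.136) or knockout replicate 2 (0.0769), with library totals (0.0673) and with centring on neighbours (0.139). Of 6 markers of promyelocytic cells, 5 were tested and all 5 fell, beside 5.63% of all genes tested. The summed level of the 6 markers was 2715 to 8705 CPM in knockout libraries against 11888 to 14245 CPM in controls. ELANE, the neutrophil elastase gene of that list, had at most 4 counts in any library. Markers of monocytes summed to 0.0762 to 0.207 CPM in the knockout and 0.373 to 0.476 CPM in the control and those of erythroid and non-blood cells to at most 0.251 CPM. T cell markers summed to 0.145 to 0.331 CPM in the knockout and 0.645 to 0.845 CPM in the control (1 of 3 tested, CD2, lower), and B and plasma cell markers to 16.1 to 22 CPM in the knockout and 12.2 to 21.5 CPM in the control (2 of 4 tested, CD79A higher, MS4A1 at 0 counts). In bulk RNA, fewer cells of a kind and less RNA per cell cannot be told apart, and the part of the promyelocytic markers in the results below was not tested.

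In edgeR, 3 of the 7 tested members, DHRS3, DHRS9 and RARRES3, passed with higher levels in the knockout, beside 6.19% of all genes tested, and 0 passed with lower levels, beside 5.63% (11.8% in either direction). Before adjustment 0 members had a lower level at p under 0.05 in edgeR, DESeq2 or limma-voom. The median log2 fold change of the 7 was 0.79, that of RARG, against -0.01 over all genes tested. The knockout and control libraries did not overlap, with the knockout higher, for DHRS3, DHRS9 and RARRES3, beside 16% of all genes tested (32.2% in either direction). The receptor genes did not pass. The 3 members that rose encode enzymes, as do the other response genes listed, CYP26A1 and CD38, which had too few counts to be tested.

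The promoters of RARB and CYP26A1 are shown because each holds the DR5 element through which retinoic acid receptors are known to act on these genes, and the first promoters listed for DHRS3 and DHRS9 because their mRNAs were among the members that rose. The sequences are RefSeq windows on GRCh38.p14, from 250 bases before to 50 bases after a start site, printed 5′ to 3′ in the direction of transcription. Capitals mark the half-sites of a match, which in CYP26A1 read on the opposite strand, and the DHRS3 and DHRS9 windows have none. Sequence outside such windows was not searched, so elements further from the start sites would be missed.
RARB, chr3:25428013-25428312, plus strand: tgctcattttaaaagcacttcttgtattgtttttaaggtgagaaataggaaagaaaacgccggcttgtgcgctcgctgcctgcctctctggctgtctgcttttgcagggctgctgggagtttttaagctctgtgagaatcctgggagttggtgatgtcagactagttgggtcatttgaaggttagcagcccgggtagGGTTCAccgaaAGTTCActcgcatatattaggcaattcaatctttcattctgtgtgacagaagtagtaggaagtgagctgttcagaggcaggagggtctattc
CYP26A1, chr10:93073643-93073942, plus strand: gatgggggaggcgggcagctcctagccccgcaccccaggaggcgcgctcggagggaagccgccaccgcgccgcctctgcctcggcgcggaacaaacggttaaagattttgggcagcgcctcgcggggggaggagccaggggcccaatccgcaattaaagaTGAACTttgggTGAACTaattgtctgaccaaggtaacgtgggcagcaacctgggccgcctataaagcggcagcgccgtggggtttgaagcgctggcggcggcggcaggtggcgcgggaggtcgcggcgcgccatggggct
DHRS3, chr1:12618161-12618460, minus strand: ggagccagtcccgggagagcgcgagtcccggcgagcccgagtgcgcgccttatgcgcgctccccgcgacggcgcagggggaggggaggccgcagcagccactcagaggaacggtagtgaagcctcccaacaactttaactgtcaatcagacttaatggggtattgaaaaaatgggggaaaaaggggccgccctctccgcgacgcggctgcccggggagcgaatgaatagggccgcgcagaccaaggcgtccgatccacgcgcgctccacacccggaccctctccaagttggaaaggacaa
DHRS9, chr2:169066827-169067126, plus strand: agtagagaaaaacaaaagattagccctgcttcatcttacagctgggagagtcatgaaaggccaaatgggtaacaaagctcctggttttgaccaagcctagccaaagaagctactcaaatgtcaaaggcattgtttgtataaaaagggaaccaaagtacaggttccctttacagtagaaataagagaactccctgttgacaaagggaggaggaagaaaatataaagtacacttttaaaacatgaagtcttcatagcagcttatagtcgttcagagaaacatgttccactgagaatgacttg
The search used the half-sites AGGTCA or AGTTCA or GGGTCA or GGTTCA in direct repeat on both strands, and every start site that RefSeq lists, 22 windows of 9 members, with RARRES3 not among them. The RARB match runs from position -53 to -37 relative to the start site (chr3:25428210-25428226) and the CYP26A1 match, on the opposite strand, from -90 to -74 (chr10:93073803-93073819). These were the DR5 matches in the members' 22 windows, and DR1 and DR2 matches numbered 0. Over all 35116 windows, 0.0883% held a DR5 match, 0.0399% a DR2 match and 0.131% a DR1 match. Neither gene with a match had enough counts to be tested in these cells, as described below. Across the genome 29 genes had a DR5 window, of which 16 were in the count table by symbol and 5 were tested. By edgeR, DESeq2 and limma-voom alike, 0 of the 5 passed, and 0 had an unadjusted p under 0.05. In edgeR 11.8% of all genes tested passed in either direction. At that share 5 genes are too few for a conclusion, and none is drawn. Their median log2 fold change was -0.12, beside -0.01 over all genes tested.

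The receptor genes did not pass the test in either direction. RARA, the receptor through which HL60 cells respond to retinoic acid, stood at 23.1, 28.3 and 15 CPM in the knockout libraries, against 18.8, 34.7 and 23.4 CPM in the controls. Its groups overlapped throughout, and its log2 fold change was -0.21 with an SE of 0.26 (edgeR adjusted p = 0.648). The sign turned to 0.07 without control replicate 2 and to 0.02 without knockout replicate 3. RARG, the receptor best known from epithelia, was at 1.75, 1.47 and 1.14 CPM in the knockout and at 1.23, 0.424 and 0.881 CPM in the control. The lowest knockout value lay under the highest control value, and the log2 fold change of 0.79 (SE 0.38) had an adjusted p of 0.212 in edgeR. With an unadjusted p of 0.063, RARG also missed before adjustment in edgeR, while DESeq2 and limma-voom gave it an unadjusted p under 0.05, so that 1 of 4 tested receptor genes did so in those tools and 0 of 4 after adjustment in any of the 3. RARB, itself a retinoic acid target through the element printed above, had 0 counts in all 6 libraries.

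RXRA and RXRB, the partner receptors shared by RARs and other nuclear receptors, did not pass either. RXRA stood at 80.8, 58.7 and 85.0 CPM in the knockout, against 77.1, 57 and 79.0 CPM in the control. In both groups replicate 2 was the lowest library for RXRA, and on the log2 scale the groups were 0.07 apart (SE 0.19, edgeR adjusted p = 0.838). RXRB stood at 72.6, 77.4 and 63.1 CPM in the knockout and at 66.3, 73.4 and 62.2 CPM in the control, with replicate 2 highest and replicate 3 lowest in both. On the log2 scale the groups were 0.08 apart (SE 0.15, edgeR adjusted p = 0.776). RXRG, the remaining gene of the family and not among the members, had 0 counts in all libraries.

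**Figure D1:**
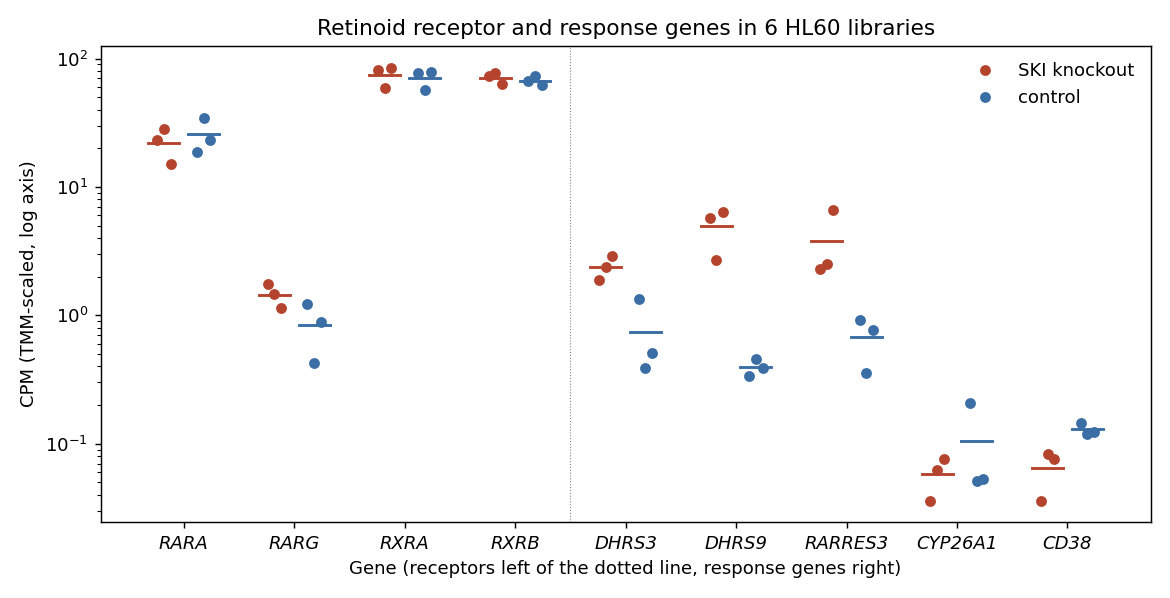
CPM of 9 members (log axis) in 3 SKI knockout libraries (red) and 3 control libraries (blue); points are libraries and bars are group means, and RARB, at 0 counts, cannot be drawn. DHRS3, DHRS9 and RARRES3 lie higher in all 3 knockout libraries than in any control library, CD38 lies lower at 2 to 7 counts a library, and the other genes overlap.

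Per length of transcript, RXRB, RXRA and RARA had the highest mean levels of the members, and CD38 and CYP26A1 the lowest of those with counts. In the knockout the range of RARRES3, at 1.78, 1.93 and 5.06 CPM per kilobase, overlapped that of the gene ranked just above it, RXRB by the deposited lengths and RARA by GENCODE lengths. The order of the first 3 depends on the length used. The authors' table gives RXRA a length 2.12 times, and RXRB one 6.07 times, the merged exon length of GENCODE release 29, whereas the other members lie between 0.831 and 1 times it. The sources used here do not say which regions were counted under the symbols RXRA and RXRB, so their counts may not belong to the GENCODE length and their levels per length are uncertain. With GENCODE lengths, RXRB was at 18.1 ± 1.86 CPM per kilobase in the knockout and 17.2 ± 1.44 in the control (SD, n = 3 each), apart from RXRA, which was next. RXRA was at 6.75 ± 1.28 CPM per kilobase in the knockout and 6.41 ± 1.10 in the control (SD, n = 3 each), and RARA at 4.68 ± 1.42 in the knockout and 5.42 ± 1.73 in the control (SD, n = 3 each), with ranges that overlapped. With the deposited lengths RARA came first, at 5.63 ± 1.71 in the knockout and 6.52 ± 2.08 CPM per kilobase in the control (SD, n = 3 each), and RXRA and RXRB could not be ordered beyond their spread. RARG was lower by either length, at 0.284 ± 0.0596 CPM per kilobase in the knockout and 0.165 ± 0.0793 in the control (SD, n = 3 each). Taken with deposited lengths, RARA made up 94.5%, 96.2% and 94.5% of the summed RARA and RARG level in the knockout libraries, against 95.2%, 99.1% and 97.2% in the control libraries, with overlapping groups.

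The surroundings of RXRA and RXRB differed between the lines although these genes themselves did not pass. RXRA lies on chromosome 9, where the median log2 fold change of 382 expressed genes was -0.21, and among its 50 nearest expressed genes it was -0.57. Of these neighbours 44 had a negative log2 fold change, 19 were called lower and 1 higher, and 46 of the 50 had a lower log2 fold change than RXRA. Over all genes tested, 5.63% were called lower and 6.19% higher. RXRB lies on chromosome 6, whose genes lay the other way: the median was 0.42 over 491 genes of the chromosome and 0.40 over its 50 nearest, of which 11 were called, all higher, and 44 of the 50 had a higher log2 fold change than RXRB. With each library centred on those neighbours, RXRA stood at 0.62 on the log2 scale (SE 0.19, edgeR adjusted p = 0.0620) and RXRB at -0.32 (SE 0.17, adjusted p = 0.298). Centring on the whole chromosome gave 0.29 for RXRA (adjusted p = 0.366) and -0.34 for RXRB (adjusted p = 0.169), so neither was called, and the sign for RXRB turned. The median of the neighbours of RARA was 0.02 and that of RARG 0.12, and centring moved these genes little.

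**Figure D2:**
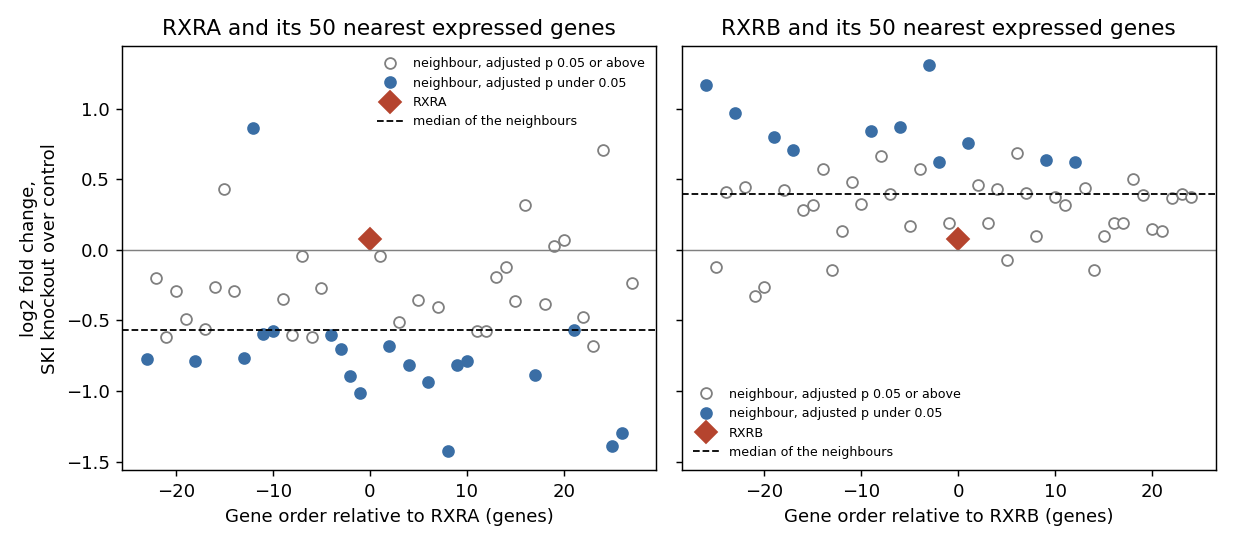
Log2 fold change (SKI knockout over control, y axis) of RXRA (left) and RXRB (right), drawn as red diamonds, and of their 50 nearest expressed genes by gene order (x axis). Filled blue circles are neighbours with an edgeR adjusted p under 0.05, and the dashed line is the median of all 50 neighbours. RXRA, at 0.07, lies above 46 of 50 neighbours with a median of -0.57, and RXRB, at 0.08, lies below 44 of 50 with a median of 0.40.

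Of the response genes, the retinoid-metabolising DHRS3 and DHRS9 were both higher in the knockout. DHRS9, a dehydrogenase that can oxidise retinol towards retinoic acid, had 315, 131 and 336 counts in the knockout libraries, against 16, 27 and 22 in the controls, or 5.69, 2.71 and 6.40 CPM in the knockout against 0.335, 0.458 and 0.387 CPM in the control. Every knockout library lay far above every control library, although knockout replicate 2 had under 3 CPM. DHRS9 was 12.4-fold higher in the knockout (log2 3.64, SE 0.37, edgeR adjusted p = 0.000289), and 42 of 16340 genes, DHRS9 included, had a log2 fold change at least as large. It passed under all 17 alternatives, with adjusted p-values between 2.82e-25 and 0.00568 and log2 fold changes between 3.43 and 3.95. The authors' deposited table puts the log2 change of DHRS9 at 3.07 (SE 0.29, adjusted p = 7.63e-23). DESeq2 run here on the raw counts gave 3.65 (SE 0.37), and why the authors' value is lower was not examined.

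DHRS3, which reduces retinaldehyde back to retinol and so limits the supply of retinoic acid, had 1.90, 2.38 and 2.92 CPM in the knockout libraries, against 1.34, 0.390 and 0.511 CPM in the controls. The groups did not overlap, but control replicate 1 stood between the other controls and the knockout. DHRS3 was 3.24-fold higher in the knockout (log2 1.70, SE 0.43, edgeR adjusted p = 0.0241). DHRS3 no longer passed when control replicate 2 was left out (log2 1.38, adjusted p = 0.0904), nor when control replicate 3 (log2 1.48, adjusted p = 0.125) or knockout replicate 1 was (log2 1.86, adjusted p = 0.0558), fits that hold fewer libraries, and its log2 fold change was 2.40 without control replicate 1 (adjusted p = 0.00346). The authors' deposited table puts the log2 change of DHRS3 at 1.40 (adjusted p = 0.000236), where DESeq2 run here gave 1.71 (SE 0.42).

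RARRES3, also named PLAAT4, encodes a phospholipid-metabolising enzyme with growth-suppressing activity that retinoids and interferons induce. It had 2.31, 2.50 and 6.57 CPM in the knockout libraries, against 0.921, 0.356 and 0.775 CPM in the controls. All 3 knockout values were above all control values, and knockout replicate 3 had more than the other knockout libraries together. RARRES3 was 5.58-fold higher in the knockout (log2 2.48, SE 0.47, edgeR adjusted p = 0.00672), and its log2 fold change was 1.85 without knockout replicate 3 (adjusted p = 0.00381). It passed under all 17 alternatives, with adjusted p-values from 1.09e-12 to 0.0415. DHRS3, DHRS9 and RARRES3 each had a higher log2 fold change than all 50 of their nearest expressed genes, whose medians were -0.05, 0.08 and -0.03 in that order of genes. These members were already called for a large rise, so their place above the neighbours is a description only. The neighbours had an average log2 CPM above 2, a level that these members did not reach.

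**Figure D3:**
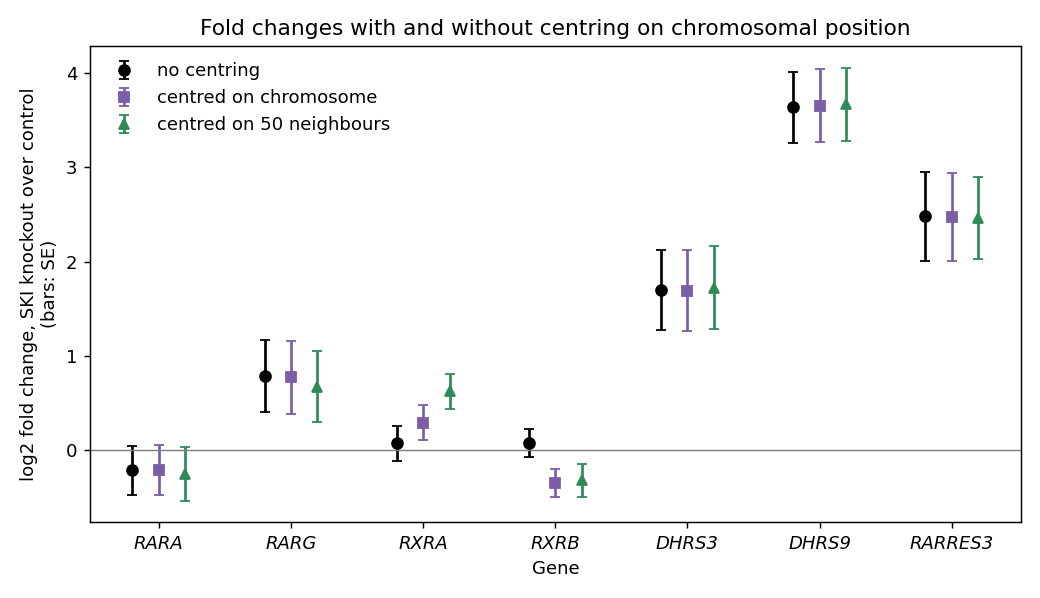
Log2 fold change (SKI knockout over control) of the 7 tested members, with bars for the SE, without centring (circles), centred on the chromosome (squares) and centred on the 50 nearest expressed genes (triangles). DHRS3, DHRS9 and RARRES3 stay at about 1.7, 3.7 and 2.5, whereas RXRA shifts to 0.62 and RXRB to -0.32 with the neighbours.

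The remaining response genes had few counts, so that only a large change in them could have been seen. For counting error only, the upper limits of their ratios, 1.42 for CYP26A1 and 1.11 for CD38, lie below the 3.24-fold, 5.58-fold and 12.4-fold increases of DHRS3, RARRES3 and DHRS9. The lower limits leave room for a fall. These limits leave out the spread among libraries, so they cannot settle whether a rise of that size took place. CYP26A1, the cytochrome P450 that degrades retinoic acid and among the most strongly induced retinoid targets in many cells, had 2, 3 and 4 counts in the knockout libraries, against 10, 3 and 3 in the controls. Summed over libraries that was 9 counts against 16, a ratio of 0.589 (95% exact binomial interval 0.229 to 1.42, for counting error only), and control replicate 1 alone held most of the control counts. Knockout replicates 2 and 3 (0.0621 and 0.0762 CPM) lay above control replicates 2 and 3 (0.0509 and 0.0528 CPM). CD38, an NAD-consuming surface enzyme that rises early when HL60 cells receive retinoic acid, had 2, 4 and 4 counts in the knockout libraries, against 7, 7 and 7 in the controls. The CD38 groups did not overlap, with the knockout lower, as for 16.1% of all genes tested, and the summed 10 counts against 21 gave a ratio of 0.499 (95% exact binomial interval 0.210 to 1.11). Without the filter on low counts, edgeR put CD38 at -0.95 on the log2 scale (SE 0.78, adjusted p = 0.572) and CYP26A1 at -0.75 (SE 0.86, adjusted p = 0.660). Neither gene passed, and no direction is read from these counts.

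By Pearson correlation of log2 CPM over the 6 libraries, given as a description, the genes most like DHRS9 were SAMSN1 (0.9959), CCBL2 (0.9955) and SH3BP1 (0.9943). Those most like RARRES3 were C17orf103 (0.9982), TLK2 (0.9973) and RCN1 (0.9959), and those most like DHRS3 were C10orf11 (0.9910), MFAP4 (0.9875) and S100A6 (0.9855). Since they were picked for likeness to members whose groups do not overlap, their separation and calls follow largely from that choice. All 9 were higher in every knockout library than in any control library, as were 16% of all genes tested, with folds from 1.14 for TLK2 to 2.13 for S100A6, and SAMSN1, C10orf11, MFAP4 and C17orf103 passed the edgeR test (adjusted p = 0.00485, 0.0185, 0.0255 and 0.0237). The calls on C10orf11, MFAP4 and C17orf103 were lost without control replicate 2 (adjusted p = 0.0821, 0.134 and 0.105) or control replicate 3 (0.0964, 0.120 and 0.0830), and that on C10orf11 without knockout replicate 1 (0.0552).

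Among other genes of retinoid metabolism and transport, most were too low to test or did not pass. Of 29 listed, 13 were tested: 1 rose, 2 fell and 10 missed the threshold, beside 6.19% higher and 5.63% lower over all genes tested. Their median log2 fold change was -0.24, beside -0.01 over all genes tested. Genes at 0 counts in all libraries were 7, among them ALDH1A1, a retinaldehyde dehydrogenase, and CRABP1, a retinoic acid binding protein. AKR1C3, an aldo-keto reductase of steroids and retinaldehyde, had 0.922, 0.559 and 1.66 CPM in the knockout and 0.251, 0.153 and 0.141 CPM in the control. The groups did not overlap, and AKR1C3 rose 5.78-fold (edgeR adjusted p = 0.00673, and 0.0511 without control replicate 3). Reads shared with closely related genes could affect its value, which was not examined. BCO2, a carotenoid-cleaving enzyme, fell to 0.853 ± 0.155 CPM in the knockout, against 2.10 ± 0.219 CPM in the control (SD, n = 3 each, edgeR adjusted p = 0.0128); its exons overlap those of other genes on the same strand. RDH13, a mitochondrial retinol dehydrogenase, fell to 22.6 ± 2.49 CPM in the knockout, against 37.1 ± 3.36 CPM in the control (SD, n = 3 each, log2 -0.72, adjusted p = 0.0140). RDH13 did not pass without control replicate 2 (0.0552), control replicate 3 (0.0771) or knockout replicate 1 (0.0571), and with chromosome centring it was at -0.22 (0.462) and with neighbour centring at -0.27 (0.397). RDH11, which like DHRS3 acts on retinaldehyde and had at least 2366 counts in every library, stood at 0.08 on the log2 scale and RETSAT, a retinol saturase, at -0.08, with adjusted p-values of 0.765 and 0.798.

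Other genes known to respond to retinoic acid in myeloid or other cells moved in both directions. Of 21 listed, 15 were tested: 5 rose, 2 fell and 8 missed the threshold, around a median of 0.55. Over all genes tested, 6.19% were called higher and 5.63% lower. ITGAX, an integrin chain of mature myeloid cells, had 9.90, 9.87 and 7.66 CPM in the knockout and 2.64, 1.48 and 2.18 CPM in the control, 4.36-fold higher without overlap (edgeR adjusted p = 0.000788). TNFSF10, the death ligand TRAIL, had 6.90, 7.70 and 9.32 CPM in the knockout and 3.22, 2.02 and 2.91 CPM in the control, a 2.94-fold increase (adjusted p = 0.00274). UBA7, the activating enzyme for the ubiquitin-like protein ISG15, had 22.7, 27.8 and 40.5 CPM in the knockout and 12.6, 10.0 and 12.2 CPM in the control (2.61-fold higher, adjusted p = 0.00281). RARRES3, TNFSF10 and UBA7 are also known as interferon-induced genes, and for each of them knockout replicate 3 was the highest library. That library was also the highest for DHRS3, DHRS9 and AKR1C3. IFIT3, another interferon-induced gene on the list, was at 0.55 on the log2 scale and did not pass (edgeR adjusted p = 0.143). IRF1 and PML, also on the list and induced by interferon, were at 0.49 and -0.27 and did not pass (edgeR adjusted p = 0.208 and 0.23). Whether interferon had a part in these values was not tested. CEBPE, a direct retinoic acid target in granulocyte development, moved the other way, to 154, 148 and 218 CPM in the knockout against 457, 361 and 437 CPM in the control (log2 -1.27, adjusted p = 0.00194). ITGAM, a maturation marker that retinoic acid raises in HL60 cells, was at 0.50 on the log2 scale (adjusted p = 0.296). TGM2, a transglutaminase strongly induced by retinoids, had at most 3 counts in a library, and RARRES1 had 0 in all.

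**Figure D4:**
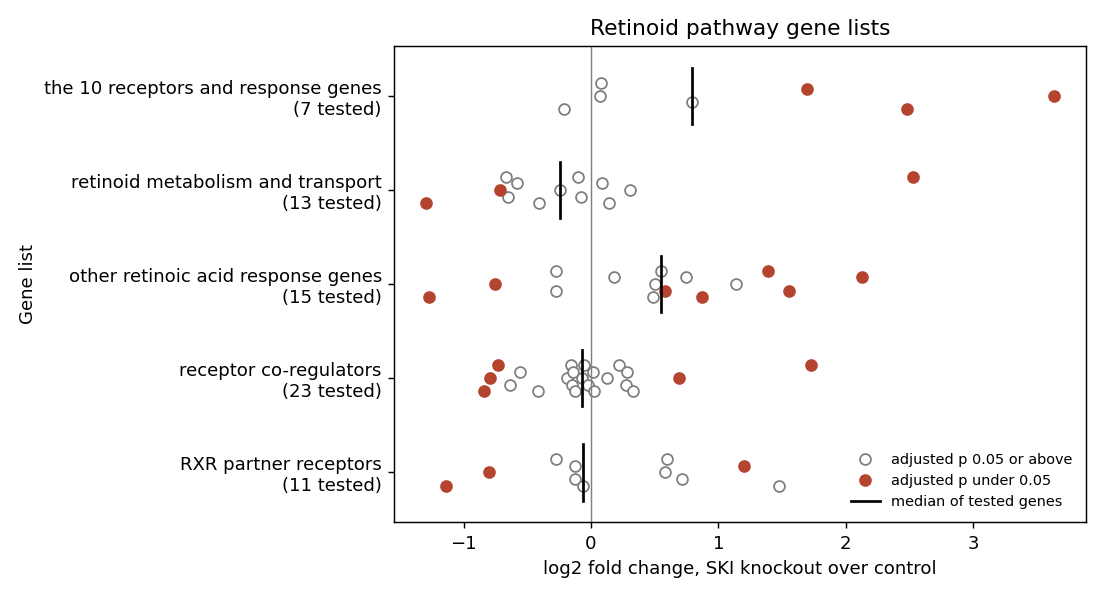
Log2 fold change (SKI knockout over control, x axis) of every tested gene in the 10-gene set and in the lists of metabolism, response, co-regulator and partner receptor genes; filled red circles have an edgeR adjusted p under 0.05 and vertical bars mark the median of the tested genes. Medians are 0.79, -0.24, 0.55, -0.07 and -0.06 from top to bottom, and called genes lie on both sides of 0 in every list but the first.

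Genes of the co-repressor and co-activator complexes that RARs recruit were well counted and mostly did not pass. All 23 listed were tested, of which 2 rose, 3 fell and 18 missed the threshold, around a median of -0.07. SKI, the targeted gene, is on this list and is counted among the 3 that fell, with SIN3B and CARM1. The shares called over all genes tested were 6.19% higher and 5.63% lower. The co-repressor gene NCOR1 was at -0.12 on the log2 scale (adjusted p = 0.798), and HDAC3, the deacetylase of its complex, at -0.06 (adjusted p = 0.834). SKIL, the closest relative of SKI, had 15.1, 9.79 and 10.5 CPM in the knockout against 2.57, 4.23 and 3.89 CPM in the control, 3.30-fold higher without overlap (adjusted p = 0.00193). TBL1X, a subunit of the NCoR complex, had 42.0, 39.6 and 39.5 CPM in the knockout against 27.3, 21.2 and 26.6 CPM in the control (log2 0.69, adjusted p = 0.0161), and lost its call without control replicate 2 (0.0920), control replicate 3 (0.0596) or knockout replicate 1 (0.0535). SIN3B, a scaffold of histone deacetylase complexes, and CARM1, an arginine methyltransferase co-activator, fell by 0.79 and 0.84 on the log2 scale (adjusted p = 0.0185 and 0.0204). Centring on the chromosome moved SIN3B to -0.29 (0.408) and CARM1 to -0.33 (0.392), and centring on neighbours moved them to -0.33 (0.363) and -0.37 (0.332). SIN3B was at an adjusted p of 0.05, and not called, with library totals. Without control replicate 2 or 3 both lost their calls (SIN3B 0.0588 and 0.103, CARM1 0.0868 in both fits), as did CARM1 without knockout replicate 1 (0.0693).

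Receptors other than RARs that pair with RXR gave a similarly divided picture. Of 13 listed, 11 were tested: 1 rose, 2 fell and 8 missed the threshold, around a median of -0.06. Among all genes tested, 6.19% were called higher and 5.63% lower. PPARD, a fatty acid receptor that also accepts retinoic acid, had 29, 14.5 and 22.4 CPM in the knockout, against 11.7, 7.08 and 10.1 CPM in the control, without overlap (log2 1.20, edgeR adjusted p = 0.0134). PPARD did not pass without control replicate 2 (0.0593), control replicate 3 (0.0634) or knockout replicate 1 (0.0687), and with chromosome or neighbour centring (log2 0.78, adjusted p = 0.0942, and log2 0.85, adjusted p = 0.0746). THRA, a thyroid hormone receptor, fell to 24.8 ± 5.24 CPM in the knockout, against 43.2 ± 6.82 CPM in the control (SD, n = 3 each, adjusted p = 0.0185); the call was lost without control replicate 3 (0.104) or knockout replicate 1 (0.0789), and its exons overlap NR1D1 on the opposite strand. NR4A2, an orphan receptor, fell to 0.684 ± 0.127 CPM in the knockout, against 1.5 ± 0.228 CPM in the control (SD, n = 3 each, adjusted p = 0.0311), and lost its call in 5 of the 6 fits that left out a library, with adjusted p-values from 0.0511 to 0.135. VDR, the vitamin D receptor through which HL60 cells take a monocytic path, was at -0.13 on the log2 scale (adjusted p = 0.725).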

How the data were processed

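Libraries were assigned to groups and replicates from the titles, and count columns by group and replicate number. Per the submitters' processing notes, TopHat2, Subread with featureCounts, DESeq and DESeq2 were used with build hg19 (GRCh37); the sources used here name neither the annotation, the versions, the strand setting nor the handling of reads shared by genes. Raw counts by gene, as deposited, are the input of the tests. The authors also deposited a second table of counts divided by size factors, a signal in reads, with their log2 fold changes, test score and p-values. Multiplied by the size factors, 100% of that table's values were whole within 0.01 read, and edgeR run on these reads, an alternative chosen after seeing the data, called 1934 genes. The size factors were derived from the raw counts and these values, so this alternative refits nearly the same counts and could hardly differ. It is counted among the alternatives of each tested member.

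Genes were kept with filterByExpr, scaled by TMM and tested by edgeR's quasi-likelihood F test with group as the only term, in R 4.3.3 with edgeR 4.0.16, DESeq2 1.42.0 and limma 3.58.1. P-values were adjusted by Benjamini-Hochberg over 16340 genes, with a threshold of 0.05, and SEs derived from the F statistic. A prior count of 2 was used for log2 CPM. Library totals of 47930276 to 58553247 counts set the precision; intervals cover counting error only. The members and gene lists were chosen with earlier results of these data known. The text names the 10 members, SKI, up to 4 called genes with the smallest p from each list, and for each called member the 3 genes of average log2 CPM at least 2 most correlated with it; further list genes were named after their values were seen. Exon overlaps, exon lengths and gene order came from GENCODE release 29 (GRCh38) by symbol, with a chromosome for 80.8% of tested genes. Of the members, 3 (RARA, RARB and RXRB) overlap exons on the opposite strand and 1 (CYP26A1) on the same strand. Alternatives were other scalings, filters and tests, the replicate number as a block, leaving out each library, and centring each library on the chromosome or the 50 nearest genes. On simulated counts for this comparison over 16029 genes, 81% of 2-fold and 100% of 4-fold changes passed, and unchanged genes made up 7.65% of the calls. The changes were planted only in genes whose mean CPM was above 2 on the log2 scale. They were planted at random in fewer genes than the 1932 called in the data. No shifts of whole chromosomes were planted, whereas the data had a median of 0.42 on chromosome 6 and -0.48 on chromosome 19. The simulated shares may therefore differ from those in the data. RARG, DHRS3, DHRS9 and RARRES3 lay below that level, so the shares recovered do not cover them.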

Additional observations from a re-analysis of the deposited data

How the results depend on the processing

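In edgeR 1932 genes passed, and 740 to 2488 did when 1 library was left out, the count being 932 when this was control replicate 2, 740 for control replicate 3 and 1025 for knockout replicate 1. The count under each other alternative lay within 1.5 times of 1932. The number of members higher in the knockout was 2 or 3 and the number lower 0 in every alternative run. With 1 library left out, the log2 fold change of RARA ran from -0.4070 to 0.0670 and turned to 0.0212 without knockout replicate 3. That of RXRA ran from -0.0626 to 0.2474 and turned to -0.0043 without that library, and that of RXRB to -0.34 with chromosome and -0.32 with neighbour centring, all without a call; the cause was not tested. Over the 7 tested members, 110 of 119 values under alternatives kept direction and side of the threshold, 3 lost a call and 6 changed sign. The recovered reads, which refit nearly the same counts, are among these alternatives. With the replicate block 2107 genes passed, and DHRS3, DHRS9 and RARRES3 had log2 fold changes of 1.83, 3.55 and 2.40. Same-numbered libraries correlated at -0.091, 0.299 and -0.036 in their deviations from group means. Knockout replicate 3 and control replicate 1 correlated at 0.34. With 3 libraries in each group, these values cannot settle whether the numbers pair the libraries. At 9 against 16 and 10 against 21 counts, CYP26A1 and CD38 could show only a large change.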
